A study of Equus caballus with 33 samples.

Results

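MIR29A and MIR29B are genes of precursors of the microRNA-29 family, and 2 of the 25923 probe sets on the array, 1 for each gene, were annotated with one of these symbols alone. Both were used. The 2 genes, of 16661 named ones, were chosen by their levels in these same samples, over all days and both treatments, so their values are given as a description and without a test.

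A microRNA is cut from a longer primary transcript by DROSHA and then by DICER1, and the mature strand guides an Argonaute protein to messages that it represses. The miR-29 family is known for repressing collagens and other matrix genes, and in human and mouse the miR-29a gene and one of the miR-29b genes are transcribed as one cluster. The array was labelled from total RNA by whole-transcript amplification, which reads long transcripts, so these probe sets describe precursor transcripts and say nothing direct about the mature strands.

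The samples were articular cartilage of the horse, taken after death from the distal end of the third metacarpal bone of 3 animals with no sign of joint disease. Explants were kept in medium for 48 h and then cultured with recombinant equine interleukin-1β (IL-1β), an inflammatory cytokine, at 10 ng/mL, or without it. Stimulated explants were harvested after 3, 9, 15, 21 or 27 days (IL-1β groups), and unstimulated explants at the start, day 0, and at the same 5 times (control groups), with 3 arrays in each of the 11 groups. All explants were minced and digested with trypsin and collagenase before RNA extraction.

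The medians of single arrays were 5.16 to 5.38 log2 units, and arrays of a group correlated at 0.960 to 0.989 over all probe sets. The array of control day 27, replicate 3, stood apart, with a score of -58.2 on the second principal component where the other 32 arrays lay between -23.6 and 33.3. Differences of MIR29A and MIR29B that use it, and calls lost without it, are also given without it. The 10 chondrocyte markers had mean levels between the 44.6th (COL9A1) and the 99.6th (ACAN) percentile of all probe sets, with a median at the 74.0th and COL2A1 at the 68.4th. The 7 macrophage markers lay between the 12.8th (CD163) and the 87.4th (CD68) percentile, with a median at the 23.0th.

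The MIR29A level differed over time in both treatments, and day 27 minus day 3 had opposite signs in them. On average, control explants had a high level at day 0, a lower one at days 3 and 9 and the lowest from day 15 onwards. The control groups of days 9 and 15 overlapped, and replicate 1 was higher at day 15 than at day 3. In IL-1β explants the level at days 3 and 9 was like that of controls, and from day 15 it was above them, most so at day 27. All levels are log2 signals, given for replicates 1, 2 and 3 in that order, with means ± SD over 3 arrays.

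In control explants MIR29A had levels of 6.34, 7.02 and 7.20 at day 0 (mean 6.85 ± 0.45). At day 3 the control levels were 4.50, 5.81 and 5.08 (mean 5.13 ± 0.66), and at day 9 they were 4.99, 5.52 and 4.26 (mean 4.92 ± 0.63). Each of these 6 arrays was below every array of day 0. At day 15 control explants had 4.59, 3.70 and 3.27 (mean 3.85 ± 0.67). They had 3.00, 3.37 and 4.29 at day 21 (mean 3.55 ± 0.67) and 4.05, 3.33 and 3.26 at day 27 (mean 3.55 ± 0.44). The control groups of days 15, 21 and 27 overlapped each other, and day 27 minus day 0 was -3.31 ± 0.89 on the log2 scale (SD over 3 replicate numbers), a 9.89-fold lower signal. Without the array that stood apart it was -3.16.

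In IL-1β explants MIR29A had 5.94, 4.64 and 3.96 at day 3 (mean 4.85 ± 1.00) and 5.08, 5.84 and 4.49 at day 9 (mean 5.14 ± 0.68). Both groups overlapped the control group of the same day. At day 15 the IL-1β levels were 6.95, 6.81 and 6.33 (mean 6.70 ± 0.32). At day 21 they were 6.49, 5.90 and 4.52 (mean 5.63 ± 1.01), lower than at day 15 in all 3 numbers. At day 27 they were 8.92, 7.97 and 7.53 (mean 8.14 ± 0.71), above every other MIR29A value of the same number in the series.

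**Figure D1:**
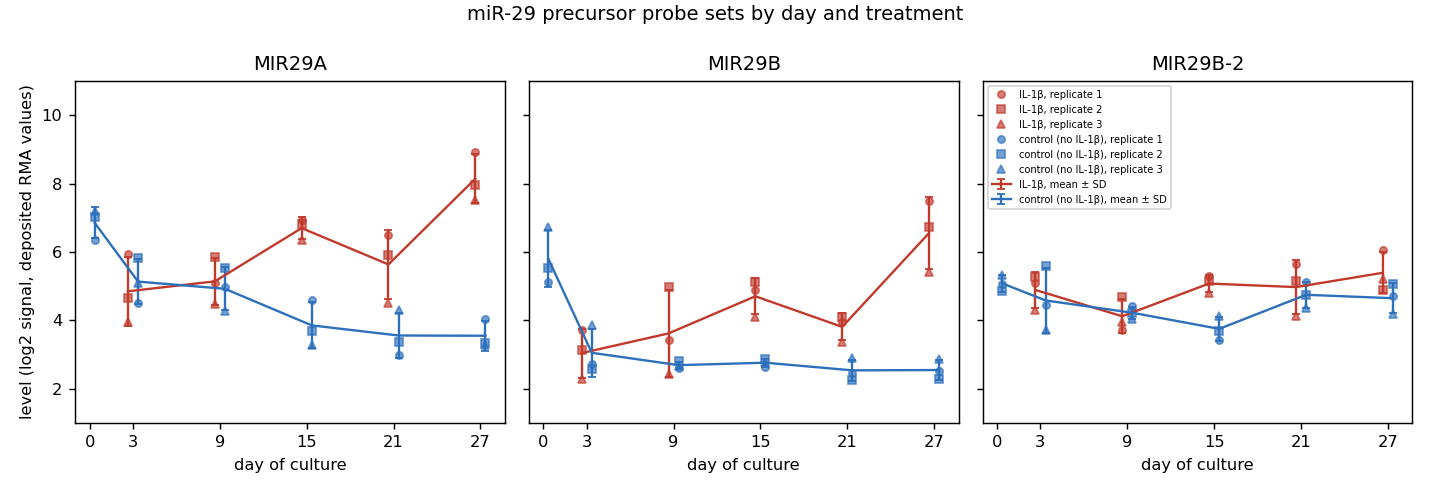
Levels (log2 signal) of the MIR29A, MIR29B and MIR29B-2 probe sets by day of culture, with IL-1β in red, drawn just left of control in blue. Symbols are single arrays by replicate number, lines and bars are mean ± SD of 3 arrays; at day 27 the MIR29A groups average 8.14 with IL-1β and 3.55 in controls.

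The difference between the treatments at one day, IL-1β minus control, followed from these levels. For MIR29A it was -0.28 ± 1.49 at day 3 (SD over 3 replicate numbers, as for all differences of the 2 genes), with 1.44 in replicate 1 and -1.17 and -1.12 in replicates 2 and 3. It was 0.22 ± 0.12 at day 9. At neither day was the difference larger than the spread between arrays of a group.

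At day 15 the difference was 2.85 ± 0.42, a 7.19-fold higher signal with IL-1β. At day 21 it was 2.08 ± 1.68, with 3.49, 2.52 and 0.23 in replicates 1, 2 and 3, so that 1 number carried little of it. At day 27 it was 4.60 ± 0.30 on the log2 scale, or 24.2-fold, with 4.87, 4.64 and 4.27 in the 3 numbers. The 3 IL-1β arrays lay above the 3 control arrays at each of these 3 days, and over the 5 days MIR29A was higher with IL-1β in 13 of 15 pairs of one day and number. Without the array that stood apart the difference at day 27 was 4.45. How many of all 25923 probe sets separated their groups so, or were higher in as many pairs, was not counted, here or for MIR29B below. Whether such separation was unusual on these arrays is thus not known. The limma test described further down, which is another measure, called 12.7%, 12.1% and 14.8% of them at days 15, 21 and 27, in either direction.

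MIR29B was also highest in controls at day 0 and above controls with IL-1β from day 15, but its control level hardly moved after day 9. Control explants had 5.13, 5.52 and 6.74 at day 0 (mean 5.80 ± 0.84) and 2.71, 2.57 and 3.86 at day 3 (mean 3.05 ± 0.71). From day 9 onwards the control means lay between 2.53 and 2.76, with single arrays between 2.27 and 2.88. Control day 27 minus day 0 was -3.25 ± 0.63, and -2.75 ± 0.28 of that lay between days 0 and 3. Without the array that stood apart, day 27 minus day 0 was -3.41.

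The control levels of MIR29B from day 9 onwards lay between the 1.84th and the 10.9th percentile of their arrays. At day 3 its percentiles in replicates 1, 2 and 3 were 9.82, 6.91 and 27.1 in controls and 26.9, 17.4 and 2.24 with IL-1β. IL-1β day 9, replicate 3, was at percentile 4.61. Values so close to the lowest signals can hide a further decline, and differences taken against them can be understated. For MIR29B this includes the control change from day 0 to 3, the treatment difference at day 3 and the IL-1β change from day 3 to 27. MIR29A in controls at day 27 lay higher, between the 16.4th and the 32.1st percentile. Its mean percentile was 27.3 at control day 15 and 23.6 at control day 21. CD3E, a lymphocyte marker, had a similar mean signal, at the 23.0th percentile over all arrays. Differences and folds of MIR29A against controls from day 15 onwards can thus be understated too, and a further decline hidden.

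In IL-1β explants MIR29B had 3.70, 3.13 and 2.28 at day 3 (mean 3.04 ± 0.71) and 3.43, 4.98 and 2.44 at day 9 (mean 3.62 ± 1.28). At day 15 it had 4.90, 5.11 and 4.10 (mean 4.70 ± 0.53), and at day 21 it had 3.95, 4.11 and 3.36 (mean 3.81 ± 0.40). Day 21 was lower than day 15 in all 3 numbers, as for MIR29A. At day 27 the levels were 7.50, 6.74 and 5.42 (mean 6.55 ± 1.05), the highest of any day in each number with IL-1β.

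IL-1β minus control for MIR29B was -0.01 ± 1.38 at day 3 and 0.93 ± 1.21 at day 9, with overlapping groups at both days. It was 1.94 ± 0.54 at day 15, 1.27 ± 0.71 at day 21 and 4.01 ± 1.27 at day 27, and at these 3 days the groups did not overlap. The day 27 difference was 16.1-fold, taken against control levels near the lowest signals, with 4.99, 4.47 and 2.57 in replicates 1, 2 and 3. It was 4.16 without the array that stood apart. MIR29B was higher with IL-1β in 13 of 15 pairs.

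**Figure D2:**
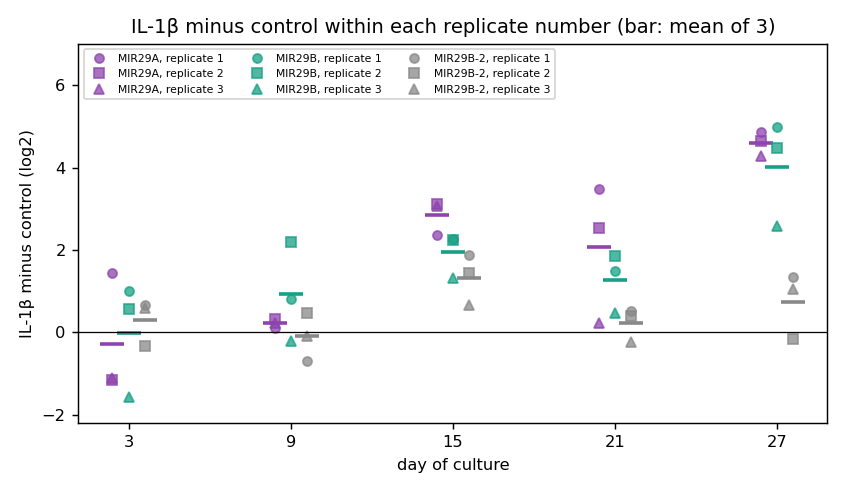
IL-1β minus control (log2) within each replicate number at each day for MIR29A, MIR29B and MIR29B-2; symbols are replicate numbers and bars are means of 3. For MIR29A and MIR29B all 3 numbers are above 0 at days 15, 21 and 27.

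The averages of the replicate numbers lay further apart with IL-1β than without it, though dim control signals can understate the spread in controls. Averaged over days 3 to 27, MIR29A had 6.67, 6.23 and 5.37 in replicates 1, 2 and 3 with IL-1β, and 4.22, 4.35 and 4.03 in controls. MIR29B had 4.70, 4.81 and 3.52 with IL-1β, and 2.59, 2.55 and 3.01 in controls. Replicate 3 was thus the lowest with IL-1β for both genes, while in controls it was the lowest for MIR29A and the highest for MIR29B. The average over days of IL-1β minus control was 2.45, 1.89 and 1.33 for MIR29A and 2.11, 2.26 and 0.51 for MIR29B. The SD over the 3 numbers was 0.66 with IL-1β and 0.16 in controls for MIR29A, and 0.72 and 0.25 for MIR29B. For MIR29B-2, a further miR-29 gene described below, it was 0.36 and 0.29. The part of dim signals in this was not tested.

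Late IL-1β explants were set against the starting tissue within each replicate number. MIR29A at day 27 with IL-1β was above control day 0 in all 3 numbers, by 2.58, 0.95 and 0.33 (mean 1.29 ± 1.16). MIR29B was above it in replicates 1 and 2, by 2.36 and 1.22, and below it in replicate 3, by -1.31 (mean 0.76 ± 1.88). At day 3 with IL-1β both genes were below control day 0 in all 3 numbers, on average by -2.01 ± 1.45 for MIR29A and -2.76 ± 1.54 for MIR29B, beside -1.72 ± 0.47 and -2.75 ± 0.28 in controls at day 3. Both treatments thus began with lower levels than the starting tissue. They parted later: day 27 minus day 3 with IL-1β was 3.29 ± 0.29 for MIR29A and 3.51 ± 0.34 for MIR29B, against -1.58 ± 1.04 and -0.50 ± 0.44 in controls. Without the array that stood apart the control values were -1.44 and -0.66. Some MIR29B levels at day 3, in both treatments, lay near the lowest signals. At day 21 with IL-1β both genes were on average below control day 0, by -1.22 ± 1.42 for MIR29A and -1.99 ± 1.21 for MIR29B.

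In the order of the 11 group means, IL-1β day 27 stood first for both genes, followed by control day 0, IL-1β day 15 and IL-1β day 21. For MIR29A the first group did not overlap the next, and every other pair of neighbours in the order overlapped. For MIR29B IL-1β day 27 overlapped control day 0, control day 0 did not overlap IL-1β day 15, and all later neighbours overlapped. The last 3 places went to control days 15, 21 and 27 for MIR29A and to control days 9, 27 and 21 for MIR29B.

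The levels of the 2 probe sets correlated at r = 0.898 (Spearman 0.856) over 33 arrays, at 0.949 (0.911) over the 15 IL-1β arrays and at 0.811 (0.564) over the 18 control arrays. After each group mean was taken off, r was 0.817 (0.832) over the IL-1β arrays and 0.214 (0.197) over the control arrays. From day 3 onwards, though not at day 0, most control levels of MIR29B lay near the lowest signals, as did some IL-1β levels at days 3 and 9. The arrays share 3 replicate numbers and 1 normalisation, so they are not independent points.

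MIR29B-2, a further miR-29 gene on the array with a probe set of its own, had a smaller range. Its group means ran between 3.75 at control day 15 and 5.39 at IL-1β day 27. At day 27 it had 6.06, 4.90 and 5.21 with IL-1β, against 4.71, 5.06 and 4.17 in controls, and the groups overlapped. With group means taken off, MIR29B-2 correlated with MIR29A at r = 0.834 over the IL-1β arrays and 0.033 over the control arrays. With MIR29B it had 0.661 and -0.428. The likeness within IL-1β groups was thus not particular to MIR29A and MIR29B. In the limma fit over all probe sets, IL-1β minus control for MIR29B-2 was 0.74 ± 0.40 at day 27 (SE, adjusted p = 0.247) and 1.33 ± 0.40 at day 15 (adjusted p = 0.0272), a call lost without replicate 1 (0.266) or 2 (0.16).

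The mature products of miR-29b genes are alike in mammals, and how far the probes of the 3 genes can bind each other's transcripts was not tested. The control change of MIR29B-2 between days 0 and 27 was -0.44 ± 0.40 (SE, limma adjusted p = 0.619), beside -3.31 and -3.25 for MIR29A and MIR29B. A further 2 probe sets carried several miR-29 symbols and were not used here.

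Against the other 319 probe sets with a single microRNA symbol, MIR29A and MIR29B had the highest differences at day 27, 4.60 and 4.01, where the others ran between -1.27 and 2.61 with a median of -0.04. They also had the highest later change with IL-1β (3.29 and 3.51, others up to 2.15) and the lowest early change in controls (-1.72 and -2.75, others down to -1.59). Those last 2 changes share no array, but they share the 3 replicate numbers, and both were among the values by which the genes were chosen. Over all 25923 probe sets, 0 had a higher value than MIR29A for day 27 minus day 3 of the treatment difference, at 4.88 ± 1.27, and only MIR29A had a higher one than MIR29B, at 4.02 ± 0.12. Without the array that stood apart these were 4.74 and 4.17. These places describe genes picked for such values.

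**Figure D3:**
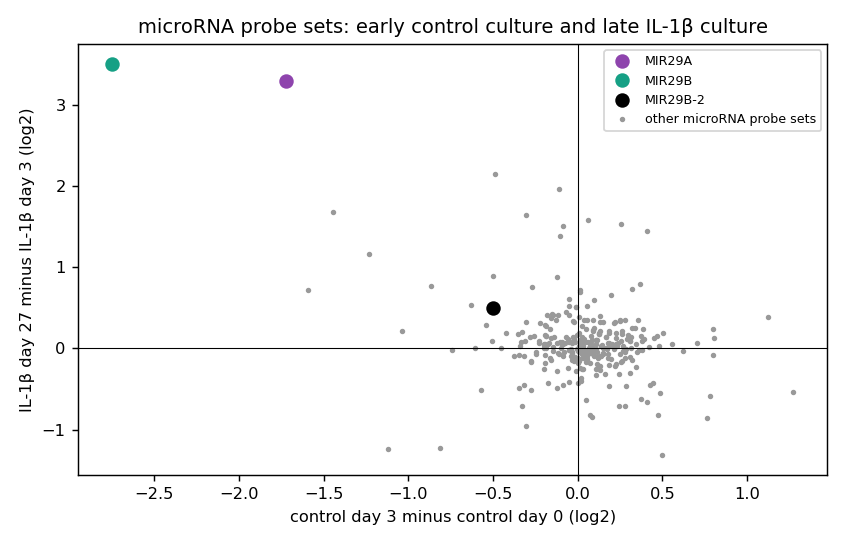
Each of the 321 microRNA probe sets by its change in early control culture (day 3 minus day 0, log2, horizontal) and in late IL-1β culture (day 27 minus day 3, log2, vertical), which share no array. MIR29A (-1.72, 3.29) and MIR29B (-2.75, 3.51) lie at the upper left, and MIR29B-2 (-0.50, 0.50) among the others. Both changes were among the values by which MIR29A and MIR29B were chosen.

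The genes whose levels ran most like MIR29A were sought among 16660 other named genes by Pearson's r over 33 arrays. MIR29B came first at 0.898. It was followed by FBXO22, which encodes a subunit of a ubiquitin ligase, at 0.854, and POR, the electron donor of cytochrome P450 enzymes, at 0.844. EIF4G2, a translation initiation factor, had 0.836 and MTMR2, a lipid phosphatase, 0.835. Their own ranges were small beside that of MIR29A: POR averaged 8.96 in IL-1β explants at day 27, against 7.24 in controls of that day and 8.74 at day 0.

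The most opposite genes to MIR29A were the antioxidant enzyme gene PRDX2 at -0.879, ECH1, an enzyme of fatty acid oxidation, at -0.871, PLD3 and ITM2C, both at -0.842, and REEP5, a shaper of the endoplasmic reticulum, at -0.840. PRDX2 averaged 7.76 with IL-1β at day 27, against 10.3 in controls of that day. For MIR29B the most alike after MIR29A were DNAJA3, a mitochondrial co-chaperone, at 0.842, EMC4 at 0.817, and DPP8 and DCAF10, both at 0.808. The most opposite to MIR29B were CYBRD1, an iron reductase, at -0.839, TCEA3 at -0.820, the heparan sulfate enzyme gene HS3ST1 at -0.818, the calcium channel gene ITPR2 at -0.813 and PLD3 at -0.801. The mean expression of all these genes shares the days, the treatment and the replicate numbers with the microRNA genes, and no p is attached.

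Genes that miR-29 has been reported to repress in mammals were taken as 4 lists, and were tested with limma over all probe sets, with Benjamini-Hochberg adjustment and 0.05 as the threshold. In the average over 5 days, 30.8% of all probe sets were called, 15.6% higher with IL-1β and 15.3% lower, with a median of -0.04. Dim probe sets count in these shares. Tested alone, the probe sets above the median signal gave 6833 calls, against 7991 over all. Differences of these genes are IL-1β minus control on the log2 scale, ± the standard error of the fit, with n = 3 arrays in each group. In bulk RNA, fewer cells of a type and less RNA per cell cannot be told apart.

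Of 22 matrix targets, 6 rose, 5 fell and 11 did not pass, with a median of 0.01. SPARC, a collagen-binding matrix protein, fell by 2.50 ± 0.14 (adjusted p = 1.02e-13), the minor fibrillar collagen gene COL11A1 by 1.91 ± 0.09 (adjusted p = 5.71e-15) and COL5A2 by 0.90 ± 0.12. COL2A1, the main collagen of cartilage, fell by 1.35 ± 0.22, whereas the gelatinase gene MMP2 rose by 2.44 ± 0.23. Genes best known as miR-29 targets in fibrous tissue did not pass: COL1A1 differed by 0.04 ± 0.06 (adjusted p = 0.666), COL1A2 by 0.00 ± 0.09 (adjusted p = 0.993) and the elastin gene ELN by -0.07 ± 0.07 (adjusted p = 0.487). Their mean levels of 4.84, 4.26 and 4.60 lay below the lowest array median of 5.16, and so dim a signal can hide a change. COL3A1 rose by 0.30 ± 0.12 (adjusted p = 0.0488), a call that was lost without any one of the 3 replicates (adjusted p of 0.0584, 0.0647 and 0.516) and without the array that stood apart (0.0953).

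Among the 7 targets that add or remove DNA methylation, TET1, a methylcytosine dioxygenase, fell by 1.05 ± 0.10 (adjusted p = 1.28e-09) and the maintenance methyltransferase gene DNMT1 rose by 0.37 ± 0.10. The call of DNMT1 was lost without replicate 1 (adjusted p = 0.0533) or 2 (0.0815). DNMT3A, a long-known target of miR-29b, differed by 0.18 ± 0.11 (adjusted p = 0.247). Of 8 measured Wnt genes, the antagonist gene DKK1 rose by 1.13 ± 0.15 and the kinase gene GSK3B by 0.26 ± 0.08, CSNK2A2, a casein kinase subunit, fell by 0.41 ± 0.07, and 5 did not pass. GSK3B was not called without replicate 1 (adjusted p = 0.135) or 2 (0.235), or with one more quantile normalisation (0.0657).

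Of 16 growth and survival targets, 6 rose and 5 fell, and 5 did not pass, with a median of 0.18. PIK3R1, a regulatory subunit of PI3-kinase, fell by 1.14 ± 0.16, the cyclin gene CCND2 by 1.05 ± 0.10, the secretase gene BACE1 by 0.66 ± 0.07 and the caveolin gene CAV2 by 0.53 ± 0.06. The 4 target lists thus held calls in both directions in the average over days.

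At day 27, where MIR29A and MIR29B differed most between the treatments, 14.8% of all probe sets were called, 8.25% higher with IL-1β and 6.54% lower, with a median of -0.06. Of the 22 matrix targets 2 rose and 5 fell, with a median of -0.19. Among the rises, MMP2 was lost without replicates 2 and 3 (adjusted p of 0.235 and 0.118) and ITGB1 without replicate 2 (0.0511). Of the falls, COL2A1 was lost without replicates 1 and 2 (0.254 and 0.111) and COL5A2 without replicate 3 (0.0657). SPARC averaged 8.18 ± 0.72 with IL-1β, against 11.6 ± 0.15 in controls (SD, n = 3 each), and COL11A1 averaged 5.56 ± 0.16 with IL-1β, against 7.72 ± 0.15. SERPINH1, the collagen chaperone, was noticed after its values were seen, and averaged 7.95 ± 0.20 with IL-1β against 9.26 ± 0.23 (difference -1.31, adjusted p = 2.14e-05).

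Of the 10 chondrocyte markers, which include COL2A1 and COL11A1, 6 fell at day 27 and 0 rose, with a median of -1.43. Their mean level was between 6.40 and 7.83 in single IL-1β arrays, against 8.14 to 8.74 in control arrays, and its part in the results for the matrix targets was not tested. TET1 fell by 1.29 ± 0.22 at day 27, CCND2 by 1.71 ± 0.21 and BACE1 by 1.08 ± 0.16, while DKK1 rose by 2.09 ± 0.34. Of the DNA methylation targets 0 rose and 1 fell, of the Wnt targets 2 rose and 1 fell, and of the growth and survival targets 1 rose and 3 fell. Among the growth and survival calls, CDK6 was lost without replicate 1 (adjusted p = 0.101) and CAV2 without replicates 2 and 3 (0.193 and 0.0938). Of the Wnt calls, GSK3B (adjusted p of 0.153, 0.256 and 0.0688) and CSNK2A2 (0.166, 0.269 and 0.125) were lost without replicates 1, 2 and 3. Both were also lost without the array that stood apart (0.3 for GSK3B and 0.0851 for CSNK2A2), as were MMP2 (0.0524), PRKRA (0.0787), DDX17 (0.0626), RELA (0.0701) and TGFB1 (0.0585), and 16 of 82 list genes were then called.

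**Figure D4:**
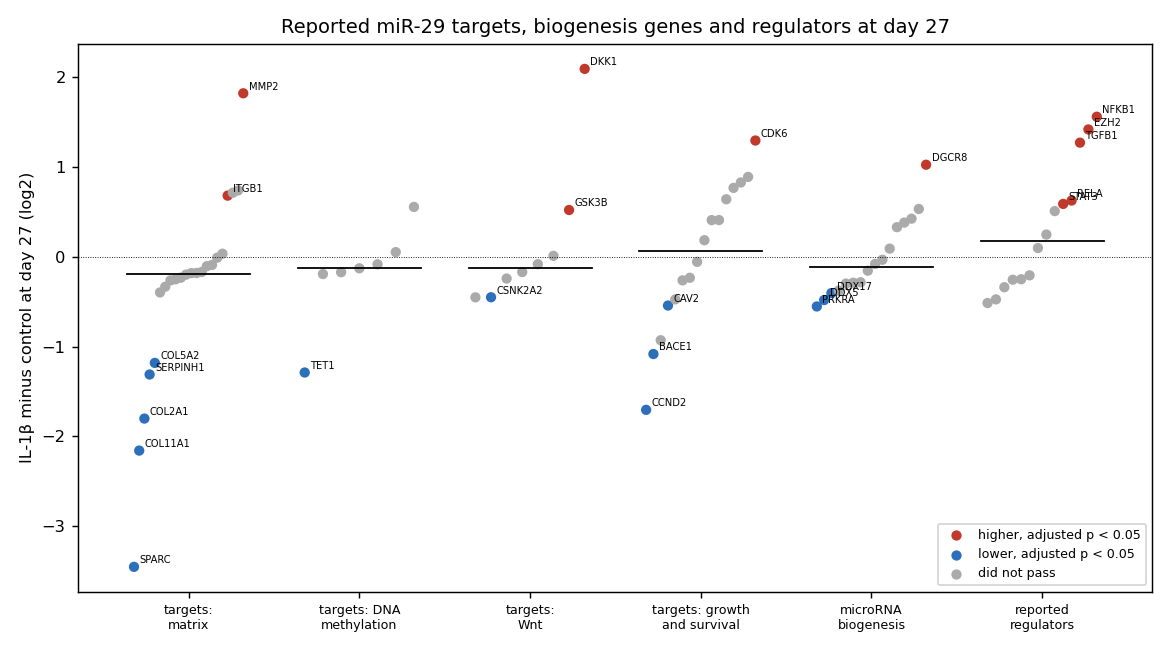
IL-1β minus control at day 27 (log2) for each measured gene of the 4 target lists, the biogenesis list and the regulator list; points in red were higher and in blue lower at a limma adjusted p under 0.05, grey points did not pass, and the line is the list's median. SPARC has the lowest value, -3.45, and DKK1 the highest, 2.09.

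Several of these genes already differed at day 3, when MIR29A and MIR29B overlapped between the treatments. What this order means for miR-29 was not tested. At that day 3.32% of all probe sets were called, 1.77% higher and 1.54% lower with IL-1β, and 7 of the 82 measured genes of all lists, 2 higher and 5 lower. COL11A1 fell by 1.66 ± 0.21, SPARC by 1.5 ± 0.32 and COL5A2 by 1.14 ± 0.28, and MMP2 rose by 2.79 ± 0.51. The call of COL11A1 held without each replicate; those of SPARC (adjusted p of 0.135 and 0.186 without replicates 1 and 2), COL5A2 (0.345 and 0.145 without replicates 1 and 3) and MMP2 (0.13 without replicate 2) did not. Called list genes numbered 19 of 82 at day 9 (7.54% of all probe sets), 27 at day 15 (12.7%), 27 at day 21 (12.1%) and 24 at day 27 (14.8%). Tested alone, the probe sets above the median signal gave 3971 calls at day 27, against 3833 over all. List shares above those of all probe sets thus do not set the lists apart. Whether the treatment difference changed between days 3 and 27 was tested as an interaction, called for 1.10% of all probe sets, 0.451% upwards and 0.644% downwards. COL11A1 (-0.50 ± 0.30, adjusted p = 0.567), COL2A1 (-0.70 ± 0.70, adjusted p = 0.785) and TET1 (-1.08 ± 0.30, adjusted p = 0.0862) did not pass it, though TET1 did when dim probe sets were left out (0.0483).

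The interaction was called for 5 of the 82 measured genes of all lists. SPARC fell by 1.96 ± 0.45 (adjusted p = 0.0281) and CCND2 by 1.35 ± 0.30 (adjusted p = 0.0239), and DKK1 rose by 2.25 ± 0.48 (adjusted p = 0.0169). SERPINH1 (-1.60 ± 0.28, adjusted p = 0.00309) and EZH2 (1.17 ± 0.25, adjusted p = 0.0187) made up the rest. None of the 5 calls held in every fit that left out 1 replicate number, where adjusted p reached between 0.255 and 0.453, and that of SPARC was also lost without the array that stood apart (0.0516).

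In unstimulated culture, where MIR29A and MIR29B were lower at day 27 than at day 0 in all 3 numbers, 5.44% of all probe sets were called, 2.03% higher and 3.41% lower. Of the 22 matrix targets 0 rose and 4 fell, and of the 16 growth and survival targets 0 rose and 1 fell. The 4 matrix genes were COL6A3 (-2.59 ± 0.33), COL15A1 (-1.30 ± 0.27), the integrin gene ITGB1 (-1.12 ± 0.16) and COL3A1 (-1.03 ± 0.26). The growth gene was CDK6, a cell cycle kinase (-1.65 ± 0.31). All but COL3A1 were named after their values were seen. The calls of COL3A1 (adjusted p = 0.256 and 0.274 without replicates 2 and 3, and 0.147 without the array that stood apart) and COL15A1 (0.0647 and 0.0624 without replicates 1 and 2) did not hold without each replicate, nor did that of CDK6 (0.0858 without replicate 3). Of the 15 DNA methylation and Wnt targets, 0 passed this limma test, and 2 had an unadjusted p under 0.05.

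Of 16 genes of microRNA processing and silencing, 3 rose, 7 fell and 6 did not pass in the average over days, with a median of -0.09, beside 15.6% and 15.3% of all probe sets. DGCR8, the RNA-binding partner of DROSHA, rose by 0.81 ± 0.11 (adjusted p = 6.91e-07), and DROSHA itself differed by 0.15 ± 0.08 (adjusted p = 0.152). DICER1 fell by 0.45 ± 0.09, its partner gene PRKRA by 0.66 ± 0.08, TNRC6A, a scaffold of the silencing complex, by 0.50 ± 0.06 and the helicase gene DDX17 by 0.42 ± 0.05. DGCR8 averaged 6.90 ± 0.24 with IL-1β at day 27, against 5.87 ± 0.12 in controls of that day. Its limma call at day 27 was lost without replicate 1 (adjusted p = 0.0501) or 2 (0.0654).

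Proteins reported to regulate transcription of miR-29 genes formed the last list. Of its 14 measured genes 7 rose and 2 fell in the average over days, with a median of 0.19, beside 15.6% and 15.3% of all probe sets. NFKB1, an NF-kB subunit reported to repress miR-29 genes, rose by 1.54 ± 0.09 (adjusted p = 1.43e-13), RELA, its partner subunit, by 0.55 ± 0.07, the histone methyltransferase gene EZH2 by 1.15 ± 0.08 and STAT3 by 0.61 ± 0.07. MYC differed by 0.16 ± 0.12 (adjusted p = 0.366) and SOX9, the chondrocyte regulator, by 0.18 ± 0.10 (adjusted p = 0.207).

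NFKB1 was already higher at day 3, at 10.5 ± 0.13 with IL-1β against 9.01 ± 0.17 in controls, and its interaction with time was 0.12 ± 0.28 (adjusted p = 0.933). In controls, TGFB1, named after its values were seen, fell by 1.59 ± 0.31 between days 0 and 3 (adjusted p = 0.0164), where 0.401% of all probe sets were called, 0.108% higher and 0.293% lower. That call was lost without any one replicate, at adjusted p of 0.206, 0.0912 and 0.324. COL15A1, at -1.66 ± 0.27, was the other list gene called in this comparison, and it was lost without replicate 1 (adjusted p = 0.0768) or 2 (0.221). TGFB1 was also called lower in controls at day 27 than at day 0, by -2.25, where 5.44% of all probe sets were called. That call was lost in the limma fit of the compared groups alone (adjusted p = 0.0769). Between days 3 and 27, 8 of the 82 list genes were called with IL-1β and 1, ITGB1, in controls, beside 3.28% and 1.01% of all probe sets.

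Markers of other cell types were read on the same arrays, in the average over days, where 30.8% of all probe sets were called. Of 4 synovial fibroblast markers 3 rose and 1 fell, with a list mean of 6.33 to 7.27 in IL-1β arrays and 5.92 to 7.17 in control arrays. Of 7 macrophage markers 1, CD68, rose, of 5 endothelial markers 3 fell, of 5 osteoblast markers 2 fell, of 4 lymphocyte markers 1 fell, and the 2 red cell markers did not pass. The part of these cell types in the MIR29A and MIR29B levels was not tested.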

How the data were processed

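Gene expression was measured in 33 samples on an Affymetrix array. The authors deposited log2 expression values, 1 column per array; the submitters' processing notes name RMA, limma and Affymetrix Expression Console without versions. The log base was inferred from the range of 1.5 to 13.9. RMA corrects background, equalises array distributions and summarises probes, so it compresses changes near the lowest signals and removes shifts shared by most genes. The values were not normalised again, and the number of arrays limits their precision. Per the labels' protocols, 2 ng of RNA were amplified for each array.

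Gene names are those of the array's annotation: 16789 had 1 symbol, 343 several and 8791 none listed. A gene was represented by its probe set with the highest mean. Groups and replicate numbers came from the titles. Members and lists were chosen with earlier results of these data known.

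Comparisons used limma 3.58.1 under R 4.3.3 (lmFit and eBayes, 1 mean for each of 11 groups, 22 residual degrees of freedom, two-sided, adjusted over 25923 probe sets), since the smallest p of exact permutation is 0.1 for 3 against 3 arrays. The fit was tested on simulated data. Arrays of one number at different days counted as independent. In the sample descriptions each number goes with 1 experiment prefix, and it was read as 1 horse, which no label states; p-values otherwise measure only the spread between these samples.

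Named were both members, the 5 most and 5 least alike genes, up to 4 called list genes with the smallest p for the average over days, and 14 fixed genes; others are marked as named after their values were seen. Of 92 list genes, 82 were measured. Alternatives were further normalisation, a replicate block, left-out replicates, a filter on dim probe sets, eBayes with trend, other probe set rules and fits of the compared groups alone; leaving out the 1 array that stood apart was added after seeing the data. Neighbouring genes were not analysed here.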

Additional observations from a re-analysis of the deposited data

Results flagged for a closer look

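Between days 3 and 27, MIR29A changed by 3.29 with IL-1β and by -1.58 in controls, and MIR29B by 3.51 with IL-1β and by -0.50 in controls (log2, n = 3 replicate numbers each). Every number was higher at day 27 with IL-1β and lower at day 27 in controls. These differences were not tested, as the genes were chosen for them.

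The treatment difference at day 27 departed from that at day 3 by limma's interaction term for SPARC (-1.96), SERPINH1 (-1.60), DKK1 (2.25), CCND2 (-1.35) and EZH2 (1.17), and for the chondrocyte marker CNMD, which encodes chondromodulin (-2.29, adjusted p = 0.00132). Without single replicates the calls were lost for SPARC (adjusted p of 0.397 and 0.271 without replicates 1 and 2), SERPINH1 (0.255 and 0.17), CCND2 (0.453 and 0.363), CNMD (0.0666 and 0.17), DKK1 (0.36 and 0.143 without replicates 2 and 3) and EZH2 (0.066, 0.28 and 0.233 without replicates 1, 2 and 3).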

How the results depend on the processing

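The MIR29A and MIR29B differences rest on 3 replicate numbers, and single ones moved them: without replicate 1 MIR29A at day 21 was 1.37, and MIR29B at day 9 was 0.30 without replicate 2 and 1.5 without replicate 3. Medians of 3 arrays gave 0.094 for MIR29A at day 9 and 3.81 for the MIR29B interaction, which was 4.17 without control day 27, replicate 3 (3.95 to 4.17 over all left-out arrays). The sign changed only for the day 3 difference, between -1.15 and 0.16 for MIR29A and between -0.51 and 0.78 for MIR29B without single replicates. Each gene has 1 probe set, so averaging probe sets gave nothing to compare. Called list genes numbered 46, 7, 19, 27, 27 and 24 for IL-1β minus control on average and at the 5 days in order. Without single replicates they ranged from 33 to 45 on average, 3 to 5 at day 3, 5 to 12 at day 9, 8 to 21 at day 15, 13 to 21 at day 21 and 11 to 17 at day 27. For control day 3 minus day 0 (2 genes) the range was 0 to 1, for control day 27 minus day 3 (1 gene) 0 to 0, for IL-1β day 27 minus day 3 (8 genes) 0 to 4 and for the interaction (5 genes) 0 to 4. In fits of the compared groups alone, which hold fewer arrays, the counts were 11 at day 9, 13 at day 27, 0 for control day 3 minus day 0, 2 for control day 27 minus day 0 (6 before), 0 for control day 27 minus day 3, 3 for IL-1β day 27 minus day 3 and 2 for the interaction. Control day 27 minus day 3 also gave 2 with one more quantile normalisation, 0 with arrays centred on their medians, and 3 with the replicate block, with dim probe sets left out or with eBayes trend; causes were not tested. The fits tested do not use the replicate number as a block, since reading a number as 1 horse rests on the experiment prefix alone and the lowest correlation of deviations from group means among 15 pairs of one day was 0.0781 (median 0.164 within a number and -0.0841 between numbers); as a hint from the data, each array (33 of 33) was most alike to its own number. With the replicate block the other counts were 47 on average and 7, 22, 33, 28 and 27 at the 5 days. Over all probe sets, calls without single replicates ranged from 5239 to 6583 on average (7991 before), 217 to 448 at day 3 (860), 638 to 1271 at day 9 (1954), 1293 to 2290 at day 15 (3284), 1548 to 2262 at day 21 (3144), 1890 to 2603 at day 27 (3833), 0 to 22 for control day 3 minus day 0 (104), 391 to 746 for control day 27 minus day 0 (1410), 35 to 109 for control day 27 minus day 3 (261), 20 to 600 for IL-1β day 27 minus day 3 (849) and 1 to 166 for the interaction (284). With the replicate block they were 179 for control day 3 minus day 0, 447 for control day 27 minus day 3 and 496 for the interaction, over 1.5 times as many. Of 3048 values of named genes under other settings, 146 lost and 20 gained a call, and 0 reversed.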
